A study of Mus musculus with 11 samples.

Results

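Across the brains of 11 mouse embryos, 10 genes of the integrated stress response and of serine synthesis were followed, out of 27179 genes counted: Atf4, Atf5, Ddit3, Trib3, Chac1, Asns, Sesn2, Phgdh, Psat1 and Psph. They were picked by gene symbol, and each symbol was found once in the count files. The embryos were taken at embryonic day 9.5, the brain was cut off just behind the otic vesicle, the primordium of the inner ear, and polyadenylated RNA was sequenced with 1 library per embryo. Affected females (4 embryos) and control males (4 embryos) were both p53-/- Bim+/-, and control females (3 embryos) were p53+/+ Bim+/-, all on a C57BL/6 background. The Bim+/- label, for the gene of a protein that promotes apoptosis, is thus common to every embryo. The labels do not state what affected means. Affected females differ from control females in p53 genotype and in being affected, and from control males in sex and in being affected. Control males differ from control females in both p53 genotype and sex, which cannot be told apart.

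The integrated stress response is the pathway by which several kinases (Eif2ak1 to Eif2ak4), each sensing another kind of stress, phosphorylate the translation initiation factor eIF2. General translation then slows while the mRNA of ATF4, a transcription factor, is translated more, and ATF4 switches on genes of amino acid supply, tRNA charging and redox balance. Serine synthesis, in which Phgdh, Psat1 and Psph act in series to make serine from a glycolytic intermediate, is among the pathways ATF4 controls, and growing embryonic tissue uses serine for nucleotides, glycine and one-carbon units. Because ATF4 is regulated largely at translation, its mRNA level does not measure its activity.

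ATF4 is known to bind C/EBP-ATF response elements, whose core can be written TGATGNAA. This motif was searched on both strands of the RefSeq promoter windows of the assembly GRCm38.p6, from 250 bases before to 50 bases after each annotated start. It was present in the windows of 3 of the 10 genes, Asns, Chac1 and Trib3, against 4.51% of all 27025 genes with such a window. These 3 stretches are shown because they place the motif relative to the start of genes whose levels are described below. Each is read 5′ to 3′ on the gene's own strand, and the capitals mark the match, which is the motif itself in Asns and its reverse complement in Chac1 and Trib3.
Asns, chr6:7693210-7693258, minus strand: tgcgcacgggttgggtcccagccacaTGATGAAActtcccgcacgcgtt
Chac1, chr2:119351023-119351082, plus strand: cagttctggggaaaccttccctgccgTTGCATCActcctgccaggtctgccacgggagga
Trib3, chr2:152344029-152344056, minus strand: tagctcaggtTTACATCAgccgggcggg
The match begins 23 bases upstream of the start in Asns, 193 bases upstream in Chac1 and 14 bases after the start, within the first transcribed bases, in Trib3. A second element, the endoplasmic reticulum stress element (CCAAT and CCACG with 9 bases between them, both strands), was in none of the members' windows and in 0.137% of all genes. Such matches describe letters and not binding, and the data hold no measurement of ATF4 on DNA.

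Library totals ran from 8211942 to 11218682 counts. Ccng1, a direct p53 target used as a check of the genotype labels, lay at 21.8 to 33.5 CPM in the 8 p53-/- libraries and at 74.7 to 93.8 CPM in the 3 p53+/+ libraries (CPM, the count scaled to a common library size after TMM normalisation). Bcl2l11, which encodes Bim, was at 43.7 ± 4.29, 40.2 ± 5.12 and 76.7 ± 5.56 CPM in affected females, control males and control females, so its RNA differed between groups with 1 and the same Bim label. Its log2 fold change against control females was -0.81 (edgeR adjusted p = 0.000851) in affected females and -0.93 (adjusted p = 0.000217) in control males. Xist, the RNA of the inactive X chromosome, read 1435 to 2167 CPM in affected females, 4391 to 5959 CPM in control females and 8.72 to 13.2 CPM in control males. Both groups of females differed by a log2 fold change of -1.55 (edgeR adjusted p = 0.000144). Markers of neural progenitors were all detected, with a summed level of 938 to 1206 CPM in affected females, 990 to 1312 CPM in control males and 975 to 1368 CPM in control females over 10 genes. Control female 1 and control male 4 stood apart from their groups in several measures given below, so counts of called members are also given without this pair. Within their groups, these libraries lay nearest to the affected females in the levels of Asns and Phgdh themselves, so leaving them out widens those differences by construction. Counts without the pair are therefore a description and no check of a result. In bulk tissue, fewer cells of a type and less RNA per cell cannot be told apart.

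Per unit of gene length, the 10 genes spanned more than 2 orders of magnitude. As RPKM (CPM divided by the deposited gene length in kilobases), the mean ± SD over all 11 libraries was 128 ± 16.8 for Psat1, 104 ± 4.81 for Atf4, 41.4 ± 7.04 for Asns and 33 ± 4.37 for Phgdh. The ranges of Psat1 (103 to 147) and Atf4 (96.5 to 111) overlapped, and Psat1 was above Atf4 in all libraries but control females 2 and 3. Those of Asns (30.7 to 51.5) and Phgdh (26.8 to 39.7) overlapped too, but within every library Asns was above Phgdh. A middle tier followed with Psph at 11.3 ± 1.26, Ddit3 at 9.85 ± 1.77 and Atf5 at 6.64 ± 0.728 RPKM. The ranges of neighbours in that order overlapped as well, though Ddit3 was above Atf5 within every library. Sesn2 came next at 3.99 ± 0.974 RPKM, with a range (3.01 to 6.52) that still reached that of Atf5 (5.6 to 8.16). Trib3 (0.740 ± 0.381 RPKM, 7 to 28 counts per library) and Chac1 (0.462 ± 0.624 RPKM, 2 to 29 counts per library) were the lowest, overlapped each other and were near the limit of what these depths resolve.

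**Figure D1:**
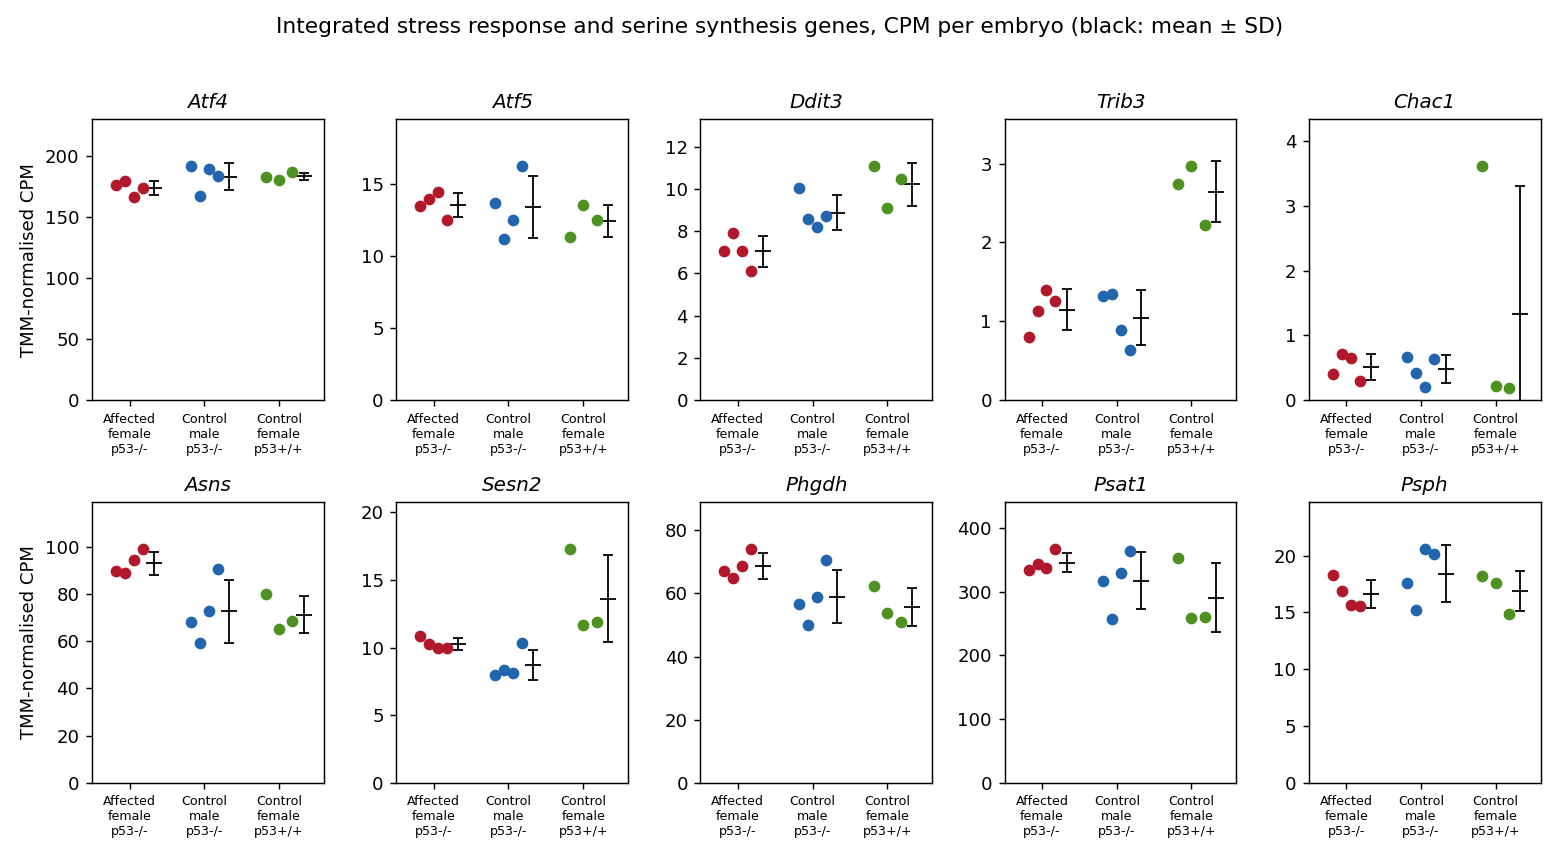
TMM-normalised CPM of the 10 genes (1 panel each, vertical axes from 0 and scaled per gene) in affected females, control males and control females. Points are embryos and black bars are the mean ± SD, with the lower bar of Chac1 in control females running below 0 and so cut by the axis; Trib3 lies between 0.636 and 1.40 CPM in every p53-/- embryo and above 2.2 CPM in every p53+/+ embryo, while the 29 counts of Chac1 in control female 1 stand alone.

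Affected females had less Trib3 and Ddit3 and more Asns than control females, at log2 fold changes of -1.19, -0.54 and 0.39. Atf4 itself differed by -5.03% and was not called. Of the 9 genes with enough counts to be tested, 1 was called higher and 2 lower at an adjusted p under 0.05 by edgeR's quasi-likelihood test, with p-values adjusted over all 14542 tested genes by the Benjamini-Hochberg method. Over all tested genes 28.0% were called in the same comparison, 13.0% higher and 15.0% lower, so the members' share is close to that of genes at large. The groups' ranges were apart for 6 of the 9 genes, against 40.2% of all tested genes. The median log2 fold change of the 9 was -0.02, beside -0.005 over all tested genes. Without control female 1 and control male 4, 3 members were called higher (Asns, Phgdh and Psat1) and 2 lower. Over all genes 5711 were then called, beside 4073 with all libraries.

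Affected females differed from control males in 1 member, Asns, which was higher at a log2 fold change of 0.36. None of the 9 was called lower by edgeR or by DESeq2, while limma voom called Psph lower and 1 gene, Ddit3, was lower at an unadjusted p under 0.05 by edgeR. Over all tested genes edgeR called 20.2%, 9.51% higher and 10.7% lower. Limma voom called 6397 genes, 3251 of them lower. The ranges were apart for 1 of 9 members (Ddit3), against 19.5% of all tested genes. The median log2 fold change was 0.12, beside -0.018 over all tested genes. Without control female 1 and control male 4, 3 members were called higher (Asns, Phgdh and Sesn2). Over all genes 6014 were then called by edgeR, beside 2940 with all libraries.

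Control males and control females, the unaffected embryos of each genotype, differed in no member by edgeR or DESeq2. The background was low, with 0.144% of tested genes called, 0.0481% higher and 0.0963% lower. At an unadjusted p under 0.05 edgeR gave 0 members higher and 2 lower, Trib3 and Sesn2, and these were also the 2 of 9 members whose ranges did not overlap, against 5.54% of tested genes. Limma voom with sample weights called Trib3 and Sesn2 lower and Psat1 higher in control males. Over all genes limma voom called 1569 in this comparison, 697 higher and 872 lower, beside 21 by edgeR. The median log2 fold change of the 9 was 0.03, beside -0.001 over all tested genes. The 3 comparisons share libraries, each group serving in 2 of them, so their values are given side by side and not as independent evidence.

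**Figure D2:**
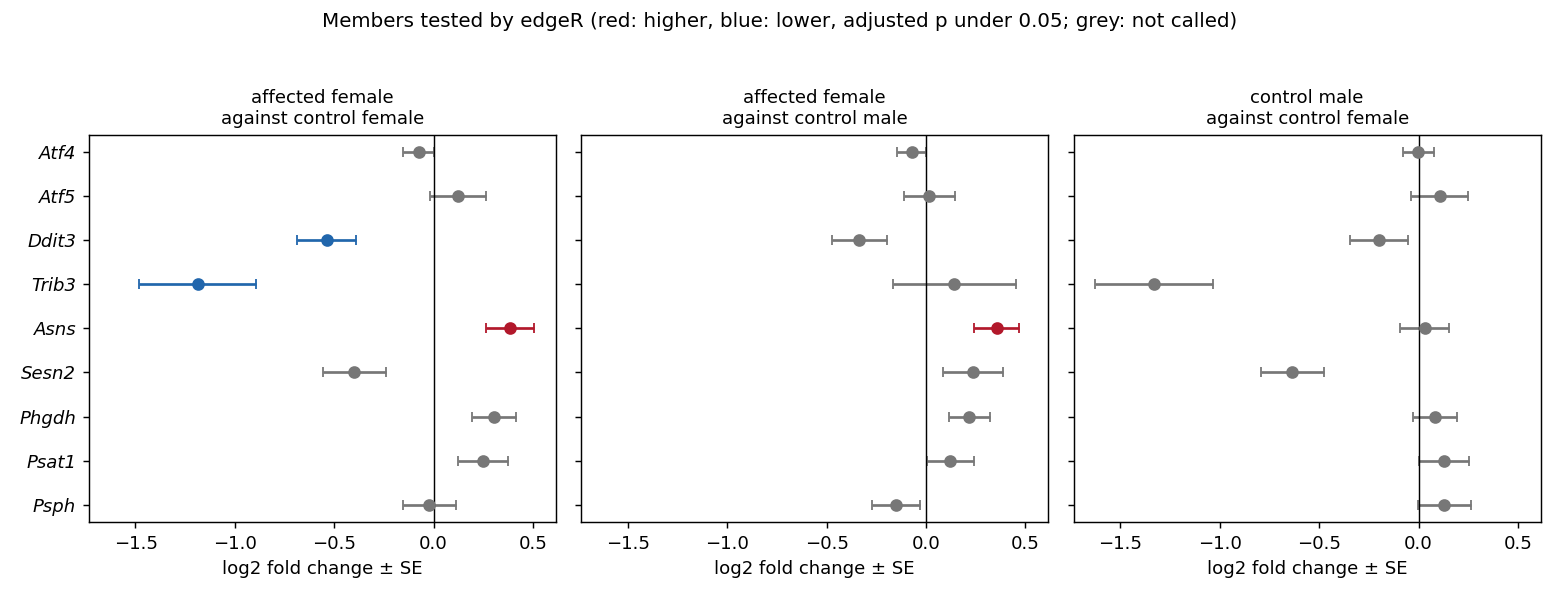
Log2 fold change ± SE of the 9 tested genes in each of the 3 comparisons (1 panel each), with red for genes higher and blue for genes lower at an edgeR adjusted p under 0.05, and grey for genes not called. Trib3 and Sesn2 lie left of 0 against control females in both p53-/- groups, and Asns lies to the right in both comparisons of affected females.

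Among the transcription factors, Atf4 (chromosome 15, 80255184 to 80257545, GRCm38.p6), the effector of the pathway, was the steadiest of the 10 genes. It read 176, 180, 166 and 174 CPM in affected females 1 to 4, 192, 167, 189 and 184 CPM in control males 1 to 4, and 183, 181 and 187 CPM in control females 1 to 3. All 4 affected females lay just below the 3 control females, by less than the spread within control males. The log2 fold change was -0.07 (SE 0.08, edgeR adjusted p = 0.484) against control females, -0.07 (SE 0.07, adjusted p = 0.482) against control males and -0.002 (SE 0.08, adjusted p = 0.999) for control males against control females. Leaving out any library kept the difference from control females between -0.09 and -0.061.

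Atf5 (chromosome 7, 44812256 to 44816658), a relative of ATF4 that is likewise controlled at translation and binds related sites, was not called in any comparison by edgeR. Its level was 13.6 ± 0.836 CPM (SD, n = 4) in affected females, 13.4 ± 2.17 CPM (n = 4) in control males and 12.5 ± 1.11 CPM (n = 3) in control females. All 3 groups overlapped, and control males 2 and 4 set the lowest and highest values of the series, 11.2 and 16.3 CPM. Atf5 overlaps Nup62 and Il4i1b in the annotation, and the strand setting of the authors' counting is unknown here, so its count may hold reads of these neighbours.

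Ddit3 (chromosome 10, 127290793 to 127296291), which encodes CHOP, the transcription factor linked to cell death under prolonged stress, fell in affected females. It read 7.08, 7.91, 7.08 and 6.10 CPM in affected females 1 to 4, 10.1, 8.58, 8.19 and 8.72 CPM in control males 1 to 4, and 11.1, 9.12 and 10.5 CPM in control females 1 to 3. Every affected female lay below every embryo of both control groups, and the control groups overlapped each other. Against control females the log2 fold change was -0.54 (SE 0.15, edgeR adjusted p = 0.0173), a level 1.45-fold lower. Against control males it was -0.34 (SE 0.14, edgeR adjusted p = 0.0897) and was not called. The call against control females was lost without control female 3 (edgeR adjusted p = 0.066, within a range of 0.0132 to 0.066 over the libraries left out). Ddit3 overlaps the ends of Mbd6 and Mars1, so its count may hold reads of these neighbours.

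Trib3 (chromosome 2, 152337425 to 152344060) encodes a pseudokinase induced by ATF4 and CHOP that feeds back to restrain both. Its level was lower in both p53-/- groups than in control females. It read 0.798, 1.13, 1.40 and 1.26 CPM in affected females 1 to 4, 1.32, 1.34, 0.888 and 0.636 CPM in control males 1 to 4, and 2.74, 2.97 and 2.225 CPM in control females 1 to 3. Both p53-/- groups overlapped each other, and no p53-/- embryo reached any p53+/+ embryo. The p53+/+ embryos were also the only unaffected females, so p53 genotype cannot be told apart here from sex and affected state. These levels rest on 7 to 15 counts in each of the 8 p53-/- libraries and on 22, 28 and 24 counts in control females 1 to 3. Against control females, affected females had a log2 fold change of -1.19 (SE 0.29, edgeR adjusted p = 0.0112), a level 2.28-fold lower. Control males had -1.33 (SE 0.30) against control females, with an unadjusted p of 0.000426 that did not pass adjustment over all genes (edgeR adjusted p = 0.177), and limma voom called it (-1.45, adjusted p = 0.00338). Affected females and control males differed by 0.14 (SE 0.31, edgeR adjusted p = 0.765). The call in affected females was lost without control female 2 (edgeR adjusted p = 0.0518, within a range of 0.00497 to 0.0518 over the libraries left out).

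Sesn2 (chromosome 4, 132492804 to 132510456) encodes a stress-induced inhibitor of the growth kinase complex mTORC1, and is known as a target of both ATF4 and p53. It read 10.9, 10.3, 9.97 and 9.98 CPM in affected females 1 to 4, 7.99, 8.37, 8.09 and 10.4 CPM in control males 1 to 4, and 17.3, 11.7 and 11.9 CPM in control females 1 to 3. As with Trib3, all 8 p53-/- embryos lay below all 3 p53+/+ embryos. How many of all tested genes split in this way was not counted. The ranges of control males and control females alone were apart for 5.54% of all tested genes. Control female 1 was far above its group, and control male 4 lay among the affected females. The log2 fold change against control females was -0.40 (SE 0.16, edgeR adjusted p = 0.0697) in affected females and -0.64 (SE 0.16, adjusted p = 0.342) in control males, and neither was called by edgeR, while limma voom called the latter (-0.54, adjusted p = 0.0105). Without control female 1 these became -0.19 (edgeR adjusted p = 0.32, the highest of 0.0505 to 0.32 over the libraries left out) and -0.43 (adjusted p = 0.612, within 0.167 to 0.999). Affected females against control males gave 0.24 (SE 0.15, edgeR adjusted p = 0.262), and 0.31 by limma voom (adjusted p = 0.0286).

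As a description of the genotype pattern, the mean of both p53-/- groups was set against control females in the same fit. This contrast was added after the values of Trib3 and Sesn2 given above were seen, so it is no test of them. It gave log2 fold changes of -1.26 (SE 0.26) for Trib3, -0.52 (SE 0.14) for Sesn2 and -0.37 (SE 0.13) for Ddit3. Atf4 was at -0.04, Atf5 at 0.11, Asns at 0.21, Phgdh and Psat1 both at 0.19, and Psph at 0.05. Ccng1 was at -1.71 (SE 0.09). Ddit3 overlapped between the genotypes, at 6.10 to 10.1 CPM in p53-/- and 9.12 to 11.1 CPM in p53+/+ embryos. Without control female 1 the value of Sesn2 shrank to -0.31.

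Chac1 (chromosome 2, 119351242 to 119354326), which degrades glutathione and is a target of ATF4 and CHOP, was too low to be tested. Its counts were 4, 7, 7 and 3 in affected females 1 to 4, 7, 4, 2 and 7 in control males 1 to 4, and 29, 2 and 2 in control females 1 to 3. The 29 counts of control female 1 (3.61 CPM) stand apart from 10 libraries at 0.719 CPM or less. Since 3 counts correspond to 0.273 to 0.374 CPM in these libraries, no difference between groups could be resolved for Chac1 and no fold change is given. Control female 1 was also the highest library of the series for Ddit3 and Sesn2.

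Asns (chromosome 6, 7675165 to 7693209), asparagine synthetase, a classic ATF4 target of amino acid shortage, rose in affected females. It read 89.6, 88.8, 94.5 and 99.3 CPM in affected females 1 to 4, 68.1, 59.2, 72.8 and 90.8 CPM in control males 1 to 4, and 80.1, 65.1 and 68.8 CPM in control females 1 to 3. All affected females were above all control females, and control male 4 was the only control embryo within their range. The log2 fold change was 0.39 (SE 0.12, edgeR adjusted p = 0.0304) against control females and 0.36 (SE 0.11, adjusted p = 0.038) against control males. Control males and control females differed by 0.03 (SE 0.12, edgeR adjusted p = 0.978).

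Neither call of Asns was stable to the choice of libraries. The call against control females was lost without affected female 3 (edgeR adjusted p = 0.0822), affected female 4 (0.0839), control male 3 (0.05), control female 2 (0.125) or control female 3 (0.105), in a range of 0.00629 to 0.125. The call against control males was lost without any of affected females 1 to 4 (edgeR adjusted p = 0.0583, 0.0522, 0.102 and 0.103) or control males 1 to 3 (0.113, 0.106 and 0.0817), in a range of 0.00182 to 0.113. The fold change itself stayed between 0.32 and 0.48 against control females and between 0.27 and 0.48 against control males over the libraries left out.

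Of the serine synthesis enzymes, Phgdh (chromosome 3, 98313171 to 98339969), which catalyses the first and committed step, had a pattern close to that of Asns. It read 67.2, 64.8, 68.6 and 74.2 CPM in affected females 1 to 4, 56.5, 50.1, 58.9 and 70.5 CPM in control males 1 to 4, and 62.4, 54.0 and 50.9 CPM in control females 1 to 3. Affected females lay above all control females, and again control male 4 was within their range. The log2 fold change was 0.30 (SE 0.11, edgeR adjusted p = 0.0527) against control females and 0.22 (SE 0.10, adjusted p = 0.131) against control males, and neither was called. The difference from control females passed the threshold without control female 1 (0.39, edgeR adjusted p = 0.0244), control male 2 (0.30, 0.0328) or control male 4 (0.30, 0.0204), in a range of 0.0204 to 0.2. It also passed with no count filter (0.32, edgeR adjusted p = 0.0489), with only the groups compared in the fit (0.29, edgeR adjusted p = 0.0253) and by limma voom (0.37, adjusted p = 0.000742). That from control males passed without control male 4 (0.32, edgeR adjusted p = 0.0158, in a range of 0.0158 to 0.319) and by limma voom (0.22, adjusted p = 0.013). Without both control female 1 and control male 4 it was 0.40 against control females (edgeR adjusted p = 0.00404) and 0.32 against control males (adjusted p = 0.006). A processed pseudogene of Phgdh exists, and reads shared with it may have been lost or split in the authors' counting.

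Psat1 (chromosome 19, 15905123 to 15925059), the aminotransferase of the next step and the member with the highest mean RPKM, was not called in any comparison by edgeR. It read 334, 343, 337 and 367 CPM in affected females 1 to 4, 317, 257, 330 and 364 CPM in control males 1 to 4, and 353, 259 and 260 CPM in control females 1 to 3. The affected females were close together, while control female 1 and control male 4 lay within their range and control male 2 and control females 2 and 3 lay far below. The log2 fold change was 0.25 (SE 0.13, edgeR adjusted p = 0.144) against control females, and 0.41 (adjusted p = 0.0195) without control female 1, in a range of 0.0195 to 0.408 over the libraries left out. Against control males it was 0.12 (SE 0.12, edgeR adjusted p = 0.459). Limma voom called Psat1 higher than in control females, in affected females (0.38, adjusted p = 0.000625) and in control males (0.30, adjusted p = 0.0188).

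Psph (chromosome 5, 129765558 to 129787443), the phosphatase of the last step, did not share this pattern. Its level was 16.6 ± 1.25 CPM (SD, n = 4) in affected females, 18.4 ± 2.52 CPM (n = 4) in control males and 16.9 ± 1.79 CPM (n = 3) in control females, and all groups overlapped. The log2 fold change was -0.02 (SE 0.13, edgeR adjusted p = 0.916) against control females and -0.15 (SE 0.12, adjusted p = 0.381) against control males, where limma voom gave -0.27 (adjusted p = 0.0308). The sign of the former turned when control female 1 (0.036) or control female 2 (0.012) was left out. Psph overlaps the start of Cct6a, so its count may hold reads of that gene.

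Within libraries, the members did not move as a block. Centred on each gene's mean over all libraries, the log2 CPM of 3 to 6 of the 10 genes was above its mean in each affected female, of 1 to 8 in control males and of 4 to 9 in control females. The extremes were control male 2, with 9 of 10 genes below their means, and control female 1, with 9 of 10 above. For the 3 serine enzymes alone, the median centred value was 0.08 to 0.21 in affected females. It was -0.002, -0.28, 0.06 and 0.20 in control males 1 to 4 and 0.08, -0.18 and -0.26 in control females 1 to 3, so control male 4 and control female 1 sat with the affected females. For the other 7 genes the median was 0.38 in control female 1 and between -0.22 and 0.06 in the remaining libraries.

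**Figure D3:**
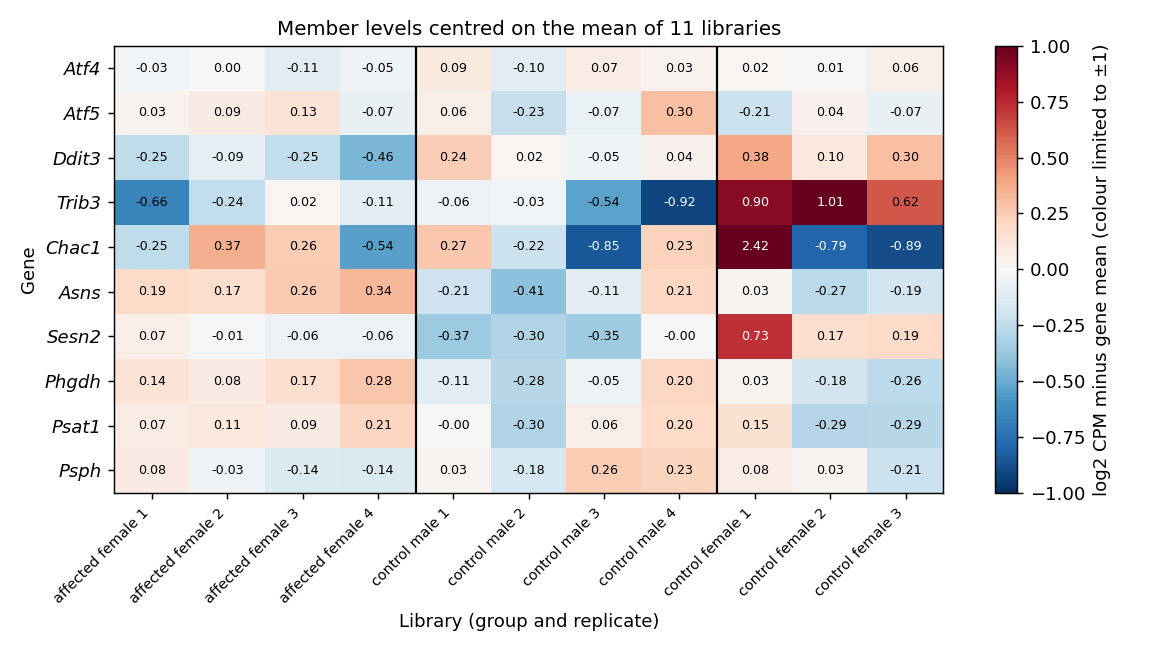
Log2 CPM of each gene (rows) minus its mean over 11 libraries, for each library (columns, by group and replicate), with the value in each cell and the colour scale limited to ±1. Control female 1 is above the mean for 9 of 10 genes and control male 2 below for 9 of 10, and the enzymes Asns, Phgdh and Psat1 are positive in all 4 affected females.

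Several other measures differed between the same libraries, and their part in the levels of Asns, Phgdh and Psat1 was not tested. The share of counts from mitochondrially encoded genes was 1.31% to 1.69% in affected females. It was 2.82%, 3.82%, 3.82% and 2.06% in control males 1 to 4 and 2.48%, 4.59% and 4.99% in control females 1 to 3, so control male 4 and control female 1 were again nearest to the affected females. The summed level of 20 glycolysis and hypoxia genes was 7796 to 9424 CPM in affected females, 5339, 4324, 5974 and 7321 CPM in control males 1 to 4, and 6964, 4949 and 4665 CPM in control females 1 to 3. Of these 20 genes 12 rose and 1 fell against control females, and 13 rose and 1 fell against control males. Over all tested genes these shares were 13.0% higher and 15.0% lower against control females, and 9.51% and 10.7% against control males.

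Markers of cell types moved too, and their part in the members' levels was likewise not tested. Early neuron markers summed to 137 to 180 CPM in affected females, 236 to 373 CPM in control males, and 168, 325 and 367 CPM in control females 1 to 3, and of the 12 genes 10 fell against control females and 9 against control males. Surface ectoderm markers summed to 267 to 308 CPM in affected females, 150 to 216 CPM in control males, and 252, 153 and 136 CPM in control females 1 to 3, and of the 9 genes 8 rose against control females and 7 against control males. Neural crest markers summed to 362 to 426, 286 to 330 and 247 to 280 CPM in the same order of groups, and of the 8 genes 7 and 2 rose. Primitive erythroid markers (8 genes, 0 called by edgeR) summed to 1035 to 2138 CPM in affected females and 1983 to 3441 CPM in control males. In control females 1 to 3 they summed to 503, 4132 and 3935 CPM. Summed head mesenchyme and endothelial markers overlapped between all groups. Of the 10 neural progenitor markers, whose sums are given above, 2 rose and 3 fell against control females. Against control males 0 rose and 1 fell. The shares of all tested genes given for the glycolysis list apply to these counts as well. None of the genes of these lists was at 0 in any library.

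Upstream of Atf4, 15 genes for the eIF2 kinases and the control of eIF2 were examined. Of these 7 rose and 0 fell in affected females against control females, with a median log2 fold change of 0.33, and 3 rose and 1 fell against control males, with a median of 0.20. These are 46.7% and 26.7% of the list, beside 28.0% and 20.2% of all tested genes. Eif2ak4, the GCN2 kinase that senses uncharged tRNA, had mean levels of 78.6, 58.8 and 62.8 CPM in affected females, control males and control females, and rose by 0.42 (SE 0.08, edgeR adjusted p = 0.00956) against control males, a call kept over every library left out. Its rise of 0.33 against control females (SE 0.09, edgeR adjusted p = 0.017) was lost without affected female 3 (0.0683), control female 2 (0.0656) or control female 3 (0.0805). Eif2ak1 (108, 90.59 and 81.88 CPM in the same order) and Eif2ak2 (30.89, 18.15 and 23.6 CPM) were also highest in affected females. The call of Eif2ak2 was kept over every library left out against control males, and lost in 7 of 11 such fits against control females. Eif2ak3 was lowest in affected females (25.65, 30.36 and 29.75 CPM) and not called. Dnajc3, known as an inhibitor of some of these kinases, fell by 0.49 (SE 0.10, edgeR adjusted p = 0.0102) against control males, likewise kept. Against control females it was at -0.22 (SE 0.11, edgeR adjusted p = 0.138), not called by edgeR, and limma voom called it (-0.24, adjusted p = 0.0281). Against control females the 7 rises became 2 and 3 when affected females 3 or 4 were left out, and 1 and 0 when control females 2 or 3 were. Against control males the 3 rises became 2 without affected female 3 and 7 without control male 4.

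Cytosolic tRNA synthetases, which charge tRNA with amino acids and include ATF4 targets, shifted in 1 direction. Of 20 genes 13 rose and 0 fell against control females and 9 rose and 0 fell against control males. Over all tested genes 13.0% and 9.51% were called higher in these comparisons. All 20 log2 fold changes were positive in both, with medians of 0.41 and 0.30 beside -0.005 and -0.018 over all tested genes. Lars, for leucine, rose by 0.61 (SE 0.15, edgeR adjusted p = 0.0117) against control females, lost without control female 3 (0.0605), and by 0.60 (SE 0.14, edgeR adjusted p = 0.0134) against control males, lost without affected female 3 (0.0583) or control male 1 (0.0528). The summed level was 4368 to 4961 CPM in affected females, 3382, 3052, 3708 and 4461 CPM in control males 1 to 4 and 4115, 3283 and 3189 CPM in control females 1 to 3, so control male 4 and control female 1 were highest in their groups, as for Asns and Phgdh. Against control females the 13 calls became 3 and 6 when affected females 3 or 4 were omitted, and 2 and 1 on omission of control females 2 or 3. Against control males the 9 calls became 5, 4, 0 and 1 without affected females 1 to 4, and 0, 1, 2 and 16 without control males 1 to 4. Without control female 1 and control male 4 together, 18 of 20 rose in each comparison. Over all genes 2789 and 2923 were then called higher, beside 1889 and 1383 with all libraries.

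Other known ATF4 targets were examined for comparison. Of 25 tested genes of 29, 2 rose and 0 fell against control females, and 4 rose and 1 fell against control males, with medians of 0.01 and 0.08. These are 8% and 20% of the 25, beside 28.0% and 20.2% of all tested genes. Sqstm1, an autophagy receptor, rose by 0.61 (SE 0.11, edgeR adjusted p = 0.00326) against control females and 0.51 (SE 0.10, adjusted p = 0.00956) against control males, and kept both calls over every library left out. The stress hormones Fgf21 and Gdf15, named after their values were seen, had 0 counts in all 11 libraries, which allows a level of up to 0.273 to 0.374 CPM per library (3 counts). The 4 rises against control males became 1 without any of affected females 1, 3 and 4 or control males 1 to 3. They became 8 without control female 1 and control male 4 together, where 2923 of all genes were called higher, beside 1383 with all libraries.

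Genes that use the serine and glycine made from the Phgdh pathway went both ways, with 3 of 13 up and 2 down against control females and 3 up and 3 down against control males. These are 38.5% and 46.2% of the list, beside 28.0% and 20.2% of all tested genes. Gldc, of the glycine cleavage system that feeds one-carbon units, rose by 0.53 (SE 0.11, edgeR adjusted p = 0.00571) against control females, a call kept over every library left out. Its rise of 0.39 against control males (SE 0.10, edgeR adjusted p = 0.0202) was lost without affected female 3 (0.0698), affected female 4 (0.0627), control male 1 (0.0733) or control male 2 (0.0582). Srr, the racemase that makes D-serine, fell by 0.57 (SE 0.18, edgeR adjusted p = 0.0279) against control females, a call lost without affected females 1 or 4 or control females 2 or 3 (adjusted p of 0.0614 to 0.0918), and was at -0.22 (SE 0.17, edgeR adjusted p = 0.342) against control males.

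Chaperones and sensors of the endoplasmic reticulum, the parallel arm to which Ddit3 and Trib3 are also known to respond, fell against control males for 12 of 18 genes, with 0 rises and a median of -0.43, beside 10.7% of all tested genes called lower. Against control females 3 fell and 0 rose, with a median of -0.18, beside 15.0% of all tested genes called lower. Manf, a secreted protein of reticulum stress, had mean levels of 117, 190 and 148 CPM in affected females, control males and control females, and fell by 0.71 (SE 0.10, edgeR adjusted p = 0.00278) against control males. Xbp1, a transcription factor of this arm, fell by 0.66 (SE 0.11, edgeR adjusted p = 0.00557) against control males, and both calls were kept over every library left out. Against control females Manf fell by 0.35 (SE 0.11, edgeR adjusted p = 0.0264), lost without affected females 3 or 4 or control females 2 or 3 (0.0661 to 0.0814), and Xbp1 was at -0.23 (SE 0.12, edgeR adjusted p = 0.138; by limma voom -0.32, adjusted p = 0.00678). The 12 falls became 7 without affected female 3, and the 3 against control females became 7 when affected female 2 was omitted, 1 on omission of affected female 3, affected female 4 or control female 3, and 0 on that of control female 2. In control males against control females 0 of 18 were called by edgeR or DESeq2, and the median was 0.22. At an unadjusted p under 0.05 by edgeR 10 were higher, and limma voom called 12 higher. Over all genes limma voom called 697 higher in that comparison.

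**Figure D4:**
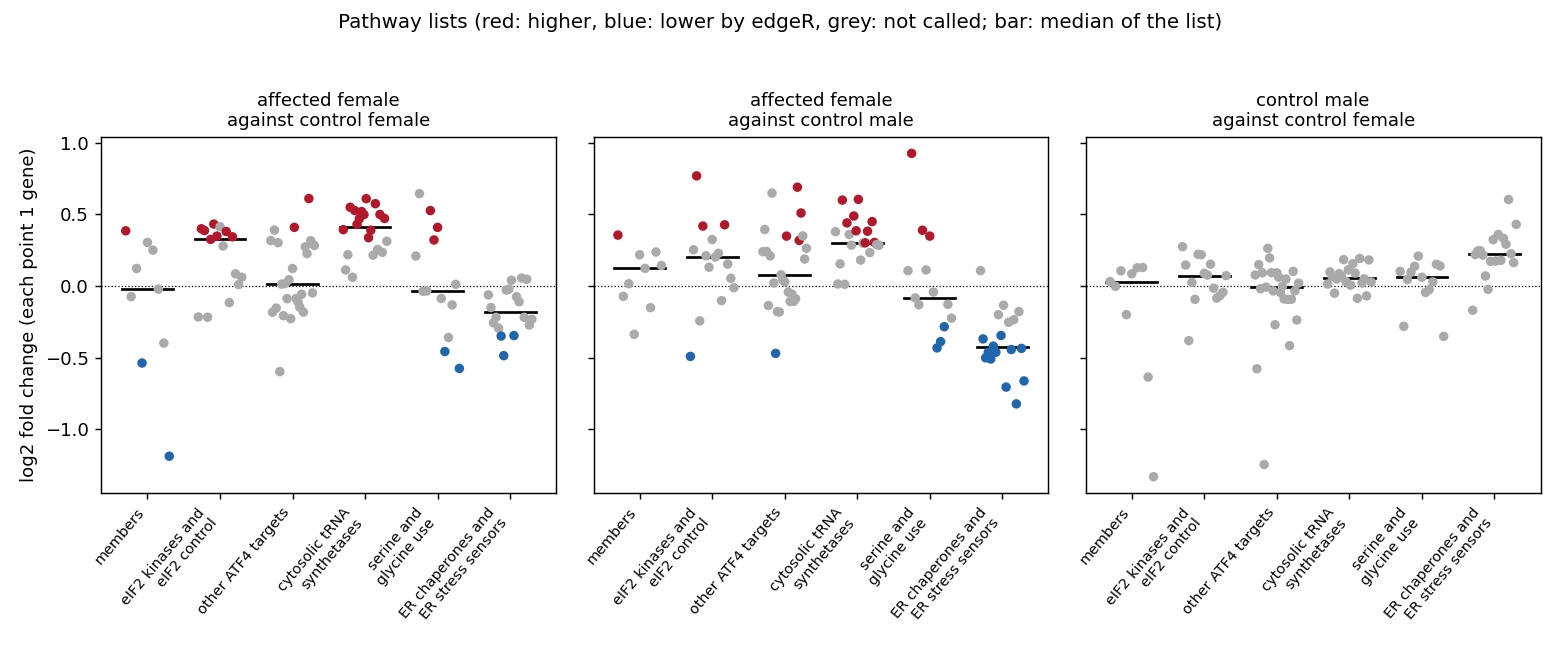
Log2 fold change of every tested gene (points) of the 9 tested members and of 5 pathway lists in each of the 3 comparisons (panels), red for higher and blue for lower at an edgeR adjusted p under 0.05, grey for not called, with a bar at each list's median. All 20 tRNA synthetases lie above 0 in both comparisons of affected females, and 12 of 18 reticulum genes are blue against control males.

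Among 11 tested family relatives of the members, Trib1 rose by 0.62 (SE 0.16, edgeR adjusted p = 0.0136) in affected females against control females, where Trib3 fell, and kept that call over every library left out. Against control males Trib1 was at 0.295 (SE 0.15, edgeR adjusted p = 0.152; by limma voom 0.31, adjusted p = 0.0108). Sesn3 rose by 0.39 (SE 0.12, edgeR adjusted p = 0.0226) against control females, a call lost without affected female 3, control female 2 or control female 3 (adjusted p of 0.0643, 0.0515 and 0.118), and by 0.31 (SE 0.11, adjusted p = 0.0457) against control males, lost without any of affected females 1 to 4, control males 1 to 3 or control female 2 (0.0576 to 0.142), and with upper-quartile scaling (edgeR adjusted p = 0.0537). Sesn1 was singled out after its values were seen because it is a p53 target like Sesn2. It had 24.8, 25.0 and 25.7 CPM in affected females, control males and control females. Of a list of 10 p53 targets that holds Sesn1, 7 fell and 0 rose in affected females against control females. In control males against control females 3 fell and 0 rose, and in affected females against control males 2 fell and 1 rose. These are 70%, 30% and 30% of the list, beside 28.0%, 0.144% and 20.2% of all tested genes.

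As a description of likeness, the genes whose log2 CPM followed a member most closely over the 11 libraries were listed among genes with a mean log2 CPM of at least 2. For Atf4 they were Gtf3a (Pearson's r = 0.976), Phf5a (0.955), Gng5 (0.95), Serp1 (0.911) and Slc25a4 (0.907). For Trib3 they were Myef2 (r = 0.952), Mier2 (0.932), Bcl2l11 (0.923), Dcaf15 (0.903) and Taf8 (0.902). Bcl2l11 is the Bim gene, whose levels are given above. For Phgdh they were Parg (r = 0.991), Prpf19 (0.99), Mthfd1 (0.983), Ndufs1 (0.982) and Lin28b (0.979). All points share libraries and scaling, and the highest of 11427 or 11428 correlations is high by selection.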

How the data were processed

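Each library has a deposited file of raw counts (whole numbers) by Entrez identifier, made by the authors, with gene lengths. Reads were counted with featureCounts on mm10, per the submitters' processing notes. Not given in the sources used here are the aligner, tool versions, annotation and strand. Libraries were TruSeq, per the labels' protocols. RefSeq GRCm38.p6 gave symbols to 25275 of 27179 identifiers, and promoter sequences.

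Of all genes in the files, 14542 passed filterByExpr. All 11 libraries entered 1 edgeR 4.0.16 quasi-likelihood fit (R 4.3.3, TMM scaling, group as factor, Benjamini-Hochberg threshold 0.05). The SE is the log2 fold change divided by the square root of F. Replicates are separate embryos per the labels, and no library pair agreed within sampling noise. In simulated counts for affected against control females (14397 genes), the shares recovered were 43.3% (1.5-fold), 76.1% (2-fold) and 98.5% (4-fold). The simulation called 160 genes, far fewer than the 4073 of the real comparison, which makes its adjusted threshold stricter. It also held no shifts shared by the genes of a library. The shares therefore do not measure the power of the real comparison.

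The members and lists were chosen with earlier results of these data known. All members were named, and from each list at most 4 genes with the smallest adjusted p. The alternatives were RLE and upper-quartile scaling, other count filters, DESeq2 1.42.0, limma 3.58.1 voom with sample weights, fits of 2 groups, robust fitting, the replicate block and libraries left out. The p53 genotype contrast was added after the data were seen, as a description.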

Additional observations from a re-analysis of the deposited data

How the results depend on the processing

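Over all alternatives, 512 member fold changes of the 3 comparisons kept their direction and their side of the threshold, 19 gained a call, 14 lost one and 22 changed sign, none of the latter called. For affected against control females, 4073 genes were called, 7639 by limma voom and 1663 to 4957 with a library left out. Without control female 1 and control male 4 together, 5711 were called. The 1 member called higher became 2 with no count filter or with only the 2 groups fitted, 3 by voom or without control female 1 and control male 4, and 0 to 3 with a library left out. The 2 called lower became 1 to 2. For affected females against control males, 2940 genes became 6397 by voom, 6014 without control female 1 and control male 4, and 361 to 5140 with a library left out. There, the 1 member called higher became 3 by voom and without that pair, and 0 to 2 with a library left out, and 1 was called lower by voom. For control males against control females, 21 genes became 42 by DESeq2, 1569 by voom and 18 to 35 with a library left out, and voom called 1 member higher and 2 lower. The cause was not tested.

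Sign changes were small. Psph against control females was 0.039 without control female 1 and control male 4, and -0.109 to 0.036 with a library left out. In affected females against control males, Atf5 was -0.006 with upper-quartile scaling and -0.062 to 0.122 with a library left out, and Trib3 was -0.036 without that pair and -0.04 to 0.28. In control males against control females, Atf4 was 0.005 with no filter, 0.039 by voom, 0.004 with 2 groups fitted and -0.029 to 0.035 with a library left out. Atf5 was -0.015 by voom, -0.059 without the pair and -0.001 to 0.18, Asns -0.053 with the replicate block, -0.003 without the pair and -0.094 to 0.121, and Phgdh -0.012 to 0.173. The cause was not tested.

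The replicate number as a block left the members' calls in the 3 comparisons unchanged and gave 2875, 3418 and 21 genes. Among the other genes named here, it ended the calls of Eif2ak2 (adjusted p = 0.0767, edgeR), Sesn3 (0.0535) and Manf (0.0524) against control females. Same-numbered libraries correlated at -0.183 to 0.258, and 4 of 11 correlated best with their own number, so the numbers were not taken to pair embryos. With the block, 16 rather than 9 tRNA synthetases and 6 rather than 3 eIF2 control genes rose against control males. Depth limits Trib3 and Chac1, whose counts per library were 7 to 28 and 2 to 29. Sex, genotype and affected state are not separable with these 3 groups.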
